A study of Mus musculus with 18 samples.

Results

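The inhaled hydrogen effect in the septic liver was set against that in the septic intestine. For each gene the H2 change, H2 minus control on log2(FPKM + 1), was taken in each organ, and the intestine change was subtracted from the liver change. A value above 0 is a liver change that lies above the intestine change. FPKM count the sequenced fragments of a gene, scaled by transcript length and by the library's total of mapped fragments. Genes entered when their mean FPKM was at least 1 in the liver libraries and at least 1 in the intestine libraries, which holds for 9391 of 24346 genes. Another 650 genes passed in the liver alone, 2519 in the intestine alone and 11786 in neither. Just inside the threshold was Zfp189, with an intestine mean of 1.0002 FPKM, and just outside was Adamts9, with a liver mean of 0.9997 FPKM.

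The mice were C57BL/6 males, 9 weeks old, and all had undergone cecal ligation and puncture, a surgical sepsis caused by the animal's own gut bacteria. H2 mice breathed 7% hydrogen continuously from directly after surgery, housed together in 1 gas box, so gas and housing cannot be told apart. Control mice were operated on in the same way and breathed no added hydrogen, and all tissue was taken at 24 h. The comparison uses 12 libraries of the 18 in the series, with 3 for each treatment in the liver and 3 for each in the intestine. The labels do not say which liver and intestine came from 1 mouse.

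The intestine is the source of the bacteria in this model, and the liver receives its blood through the portal vein. The liver is the main producer of acute-phase proteins, which hepatocytes secrete in response to IL-6 and related cytokines, and it clears bacterial products through its resident macrophages, the Kupffer cells. The intestinal lining defends itself with secreted antimicrobial lectins and peptides, and its wall also holds muscle, nerve, vessels and attached fat.

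The libraries matched their labelled organs. Albumin, Alb, was 9335 FPKM or more in the livers and never above 1.22 FPKM in the gut, and the brush border gene Vil1 was 332 FPKM or more in the gut and never above 0.179 FPKM in the livers. Depth, estimated from the FPKM that a single fragment is worth, was lowest in H2 intestine 2 (9.33 M fragments) and at most 14.1 M elsewhere. Of the 12 libraries, 3 lay nearer to the mean of the other treatment than to the mean of the other libraries of their own group, by root mean square distance over the tested genes on the log2 scale. These distances were 0.3195 and 0.5461 for control liver 2, 0.4584 and 0.504 for control intestine 2 and 0.4162 and 0.4676 for H2 intestine 3. H2 intestine 2 had a summed FPKM of 1142966, against 712858 to 850609 in the other 5 intestine libraries. The club cell gene Scgb1a1 measured 3.22 to 5.27 FPKM in library 1 of all 4 groups and 0 in libraries 2 and 3. Counts of calls are given with and without control liver 2, whose removal moved them most. Gene and list values are given both ways for only a part of the genes and lists that its removal moves. Values without another library are given for some lists.

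With all 12 libraries, 0 of 9391 genes passed in the difference (0% called, limma's moderated test, Benjamini-Hochberg adjustment, adjusted p under 0.05). The lowest adjusted p was 0.229. At an unadjusted p under 0.05 there were 1173 genes (12.5% of those tested), with 537 above 0 (5.72%) and 636 below 0 (6.77%). Without control liver 2 the same test called 370 genes (3.94%), 218 above 0 (2.32%) and 152 below 0 (1.62%). Left out 1 at a time, the other 11 libraries gave between 0 and 10 calls, with 0 without control intestine 2 and 10 without H2 intestine 3. All 20 genes described first below were among the 370.

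The organ changes that make up the difference were weakly related. Across genes, which are not independent replicates, the liver and the intestine change had a Pearson r of 0.277. Both changes were positive for 27.7% of the tested genes and both negative for 29.9%. The liver was higher and the intestine lower for 17.4%, and the reverse held for 25%. The median difference over all tested genes was -0.06. Groups that do not overlap in either organ and differ in opposite directions were found for 98 genes (1.04%). Of these, 42 were higher in the liver and lower in the intestine (0.447%) and 56 the reverse (0.596%). The same direction without overlap in both organs was found for 368 genes (3.92%), 175 higher (1.86%) and 193 lower (2.06%). Taken alone, the liver groups did not overlap for 24.3% of genes and the intestine groups for 19.3%, while an unadjusted p under 0.05 was reached by 17.4% in the liver and 18.8% in the intestine. In the liver 25 genes passed (0.266%) and in the intestine 2 (0.0213%). Both counts depend on single libraries. With 1 library left out the liver count ran from 0 to 1268, the highest without control liver 2, and the intestine count from 0 to 296, the highest without H2 intestine 3. Each gene said below to rise or fall in 1 organ passed with all 12 libraries.

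**Figure D1:**
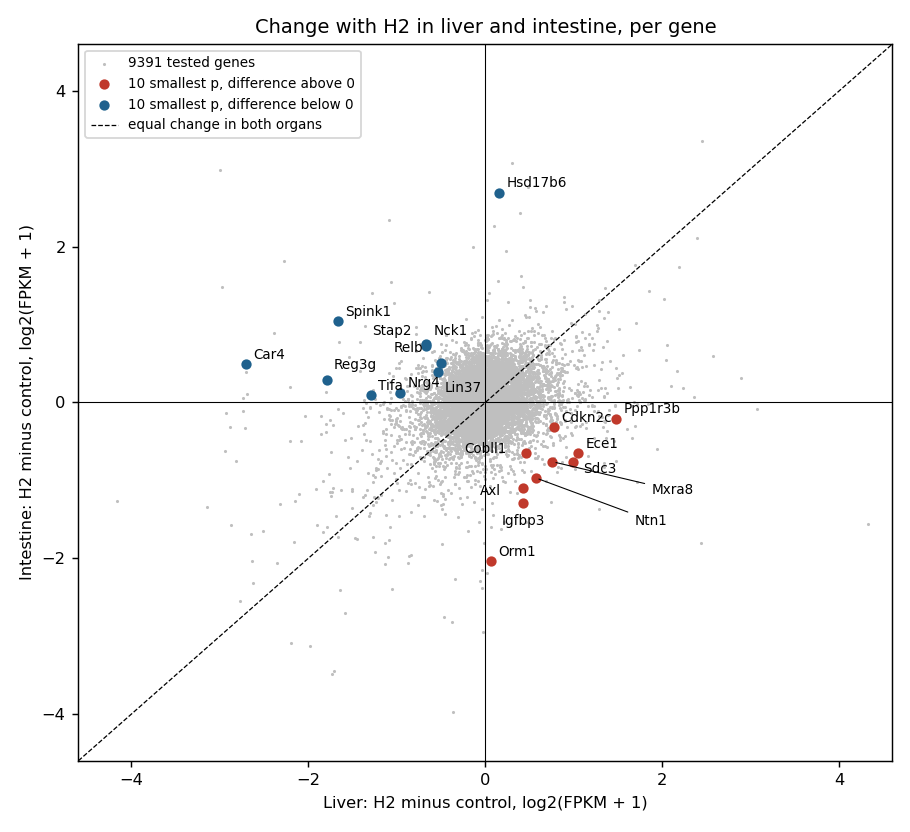
Each point is 1 of 9391 genes, with the H2 minus control change of log2(FPKM + 1) in the liver on the x axis and in the intestine on the y axis (n = 3 libraries per group). Red points are the 10 genes with the smallest p and a difference above 0, blue points the 10 with a difference below 0, and none of the 20 passed the adjusted test with all 12 libraries.

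The 10 genes with the smallest p above 0 were Mxra8, Ntn1, Orm1, Axl, Ece1, Ppp1r3b, Cdkn2c, Cobll1, Igfbp3 and Sdc3. None of these 10 passed with all 12 libraries, and their values are given as a description. In 6 of the 10 the groups did not overlap in either organ, with the liver higher and the intestine lower under H2. Over all tested genes that share was 0.447%, and the 10 were chosen by the p of this difference. Mxra8, Axl and Sdc3 encode proteins of the cell surface.

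Mxra8 (chr4:155839680-155844088, mm10, protein-coding), an adhesion protein of the cell surface, measured 1.27, 1.85 and 1.22 FPKM in the control livers and 2.97, 3.095 and 3.28 FPKM in the H2 livers. In the intestine it measured 9.52, 7.54 and 8.46 FPKM in control and 5.72, 3.18 and 5.22 FPKM in H2. The liver groups and the intestine groups each stood apart, in opposite directions. The difference was 1.52 ± 0.25 (log2, SE, n = 3 per group, limma adjusted p = 0.229), from 0.76 ± 0.18 in the liver and -0.76 ± 0.18 in the intestine.

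Ece1 (chr4:137862237-137965229), the enzyme that makes endothelin from its precursor, measured 7.81, 15.1 and 7.47 FPKM in control livers and 21.8, 20.3 and 20.8 FPKM in H2 livers. Its intestine levels were 21.03, 14.95 and 16.9 FPKM in control and 10.96, 8.53 and 13.3 FPKM in H2. Control liver 2 was the highest control liver and still below every H2 liver. The difference was 1.70 ± 0.34 (log2) with all libraries and 1.997 without control liver 2 (limma adjusted p = 0.00354).

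Sdc3, a heparan sulfate proteoglycan, measured 3.71, 7.17 and 4.04 FPKM in control livers and 10.9, 10.6 and 9.94 FPKM in H2 livers. In the intestine Sdc3 was 5.56, 4.63 and 3.43 FPKM in control and 2.57, 1.16 and 3.35 FPKM in H2. Neither organ's groups overlapped, and H2 intestine 2 held the lowest value of all. Its difference was 1.75 ± 0.37 (log2).

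For Ntn1, Axl and Igfbp3 the intestine gave the larger part. The guidance cue Ntn1 was 3.48, 3.95 and 3.22 FPKM in control intestine and 1.09, 0.794 and 2.33 FPKM in H2 intestine, a change of -0.97 ± 0.20 (log2) against 0.57 ± 0.20 in the liver. Its liver levels were low, at 0.526, 0.824 and 0.717 FPKM in control and 1.32, 1.76 and 1.43 FPKM in H2. Ntn1 reached the liver mean of 1 FPKM only through the H2 livers, so its liver part is a description. Axl, a receptor tyrosine kinase that damps innate responses and helps clear dead cells, was 15.5, 9.76 and 11.3 FPKM in control intestine and 6.27, 3.43 and 5.97 FPKM in H2 intestine. In all 3 genes every H2 intestine lay below every control intestine, and every H2 liver lay above every control liver. Igfbp3, a carrier of insulin-like growth factors, had an intestine change of -1.29 ± 0.25 and a liver change of 0.43 ± 0.25 (log2).

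Orm1 (chr4:63344560-63348163), the acute-phase plasma protein orosomucoid 1, fell in the intestine and did not pass in the liver. In the intestine it measured 9.26, 6.46 and 8.35 FPKM in control and 0.772, 0.547 and 2.76 FPKM in H2, a change of -2.04 ± 0.28 (log2, limma adjusted p = 0.0405). In the liver it measured 17058, 23615 and 21351 FPKM in control and 21861, 20658 and 21512 FPKM in H2, where the groups overlap. The liver levels lie far above the intestine levels, and the intestine call rests on values between 0.547 and 9.26 FPKM.

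Ppp1r3b (chr8:35375739-35388139), which directs protein phosphatase 1 to glycogen and so favours glycogen synthesis, rose in the liver by 1.48 ± 0.24 (log2, limma adjusted p = 0.0492). Its liver levels were 7.38, 16.4 and 9.83 FPKM in control and 25.6, 34.9 and 34.9 FPKM in H2, with control liver 2 the highest control. In the intestine it was between 1.33 and 2.44 FPKM in all 6 libraries, and its groups overlapped. The cell cycle inhibitor Cdkn2c gave a difference of 1.10 ± 0.22 and Cobll1 one of 1.11 ± 0.23 (log2).

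**Figure D2:**
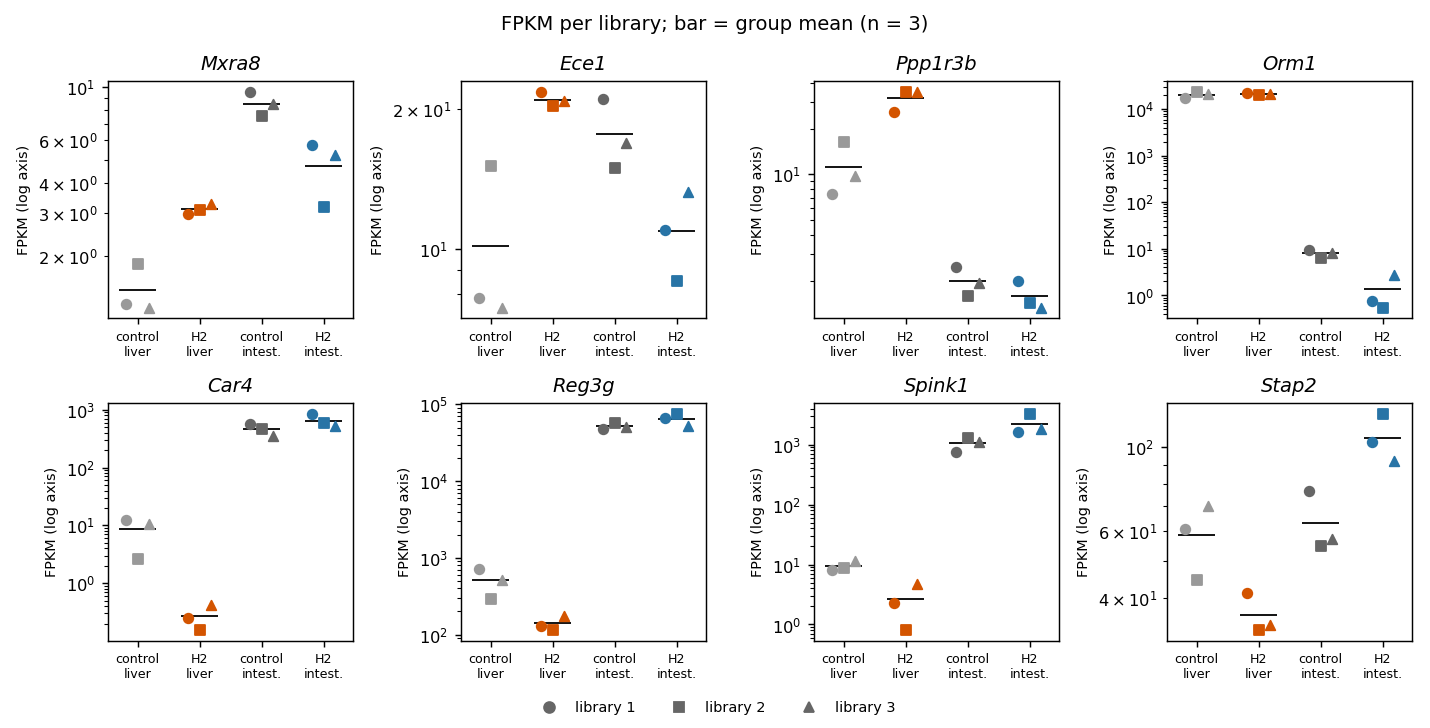
FPKM of 8 genes on log axes by library, with circles, squares and triangles for libraries 1, 2 and 3 and a bar for the mean of the 3 libraries in each group. The upper row holds genes with a difference above 0 and the lower row genes with a difference below 0, and in Mxra8, Ece1, Spink1 and Stap2 the groups stand apart in both organs, in opposite directions.

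Below 0, the 10 genes with the smallest p were Car4, Nrg4, Reg3g, Spink1, Hsd17b6, Stap2, Nck1, Lin37, Relb and Tifa. Car4, Nrg4, Reg3g and Tifa fell in the liver and Hsd17b6 rose in the intestine with all 12 libraries. In 5 of the 10 the groups did not overlap in either organ, with the liver lower and the intestine higher. The share over all tested genes was 0.596%, and these 10 were also chosen by the p of the difference.

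Car4 (chr11:84957786-84966044), a membrane-bound carbonic anhydrase of absorptive and vessel surfaces, measured 12.6, 2.65 and 10.3 FPKM in control livers and 0.254, 0.156 and 0.413 FPKM in H2 livers. The liver change was -2.70 ± 0.40 (log2, limma adjusted p = 0.0486). Its intestine levels were far higher, at 572, 467 and 347 FPKM in control and 843, 585 and 520.3 FPKM in H2, and overlapped. Control liver 2 was the lowest of the control livers, and without it the difference went from -3.19 to -3.78 (log2, limma adjusted p = 0.000321).

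Reg3g (chr6:78466269-78468872), a secreted lectin that kills Gram-positive bacteria, fell in the liver from 723, 294 and 519.8 FPKM to 129, 115 and 176 FPKM. The change was -1.79 ± 0.28 (log2, limma adjusted p = 0.0486). In the intestine, where its level was far higher, it was 48142, 58003 and 51385 FPKM in control and 66913, 75096 and 51753 FPKM in H2. The related lectin Reg3b gave a difference of -1.42 ± 0.49 (log2) and did not pass in either organ. The RefSeq promoter window of Reg3g is shown because the gene fell in the liver and bacterial products activate NF-kB. It spans 250 bases before to 50 after the start (GRCm38.p6, chr6:78468825-78469124, minus strand), and capitals mark the 1 match of the NF-kB motif, searched on both strands. Such a match is found in 8.46% of 32851 promoters of this length and is a description, not a site. The match overlaps no other motif searched, and the window also holds 1 match of the metal response core described below.
Reg3g: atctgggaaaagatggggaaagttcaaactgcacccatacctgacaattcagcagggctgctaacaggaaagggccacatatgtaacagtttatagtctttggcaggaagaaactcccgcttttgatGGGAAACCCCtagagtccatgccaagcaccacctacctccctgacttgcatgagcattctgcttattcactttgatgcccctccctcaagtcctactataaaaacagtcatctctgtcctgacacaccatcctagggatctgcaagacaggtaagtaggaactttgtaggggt

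Spink1, a trypsin inhibitor, was 8.02, 8.76 and 11.3 FPKM in control livers and 2.27, 0.814 and 4.74 FPKM in H2 livers. Its intestine levels were 764, 1280.0 and 1095 FPKM in control and 1624, 3243 and 1791 FPKM in H2. The groups stood apart in both organs, and the difference was -2.71 ± 0.53 (log2). The adaptor Stap2, which acts in STAT3 signalling, was 60.8, 44.6 and 69.95 FPKM in control livers and 41.2, 32.9 and 33.9 FPKM in H2 livers. In the intestine it was 76.8, 54.9 and 57.3 FPKM in control and 103, 123 and 92.05 FPKM in H2. Stap2 also separated the groups in both organs, with a difference of -1.42 ± 0.28 (log2).

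Hsd17b6 (chr10:127990936-128007611), a hydroxysteroid dehydrogenase, rose in the intestine from 0.535, 1.85 and 1.04 FPKM to 10.6, 17.7 and 10.1 FPKM. The change was 2.69 ± 0.35 (log2, limma adjusted p = 0.0405). In the liver it was 9.595, 3.84 and 5.07 FPKM in control and 9.09, 3.804 and 7.92 FPKM in H2, and the groups overlapped. Nrg4, a growth factor of the EGF family secreted by liver and fat, fell in the liver from 22.6, 27.4 and 21.7 FPKM to 10.5, 13.3 and 11.5 FPKM. The intestine change of Nrg4 was 0.12 ± 0.14 (log2).

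Relb and Tifa act in NF-kB signalling. The NF-kB and TNF list as a whole had 1 above 0 and 2 below 0 of 27 tested at an unadjusted p under 0.05, against 5.72% and 6.77% of all tested genes, and its median difference of 0.10 lay above 0, opposite to these genes. Relb, a subunit of the noncanonical arm, was 4.58, 5.55 and 6.74 FPKM in control livers and 3.59, 3.59 and 3.71 FPKM in H2 livers. In the intestine Relb was 35.2, 29.99 and 38.02 FPKM in control and 43.5, 58.6 and 46.3 FPKM in H2, so that the groups stood apart in both organs in opposite directions. Tifa, an adaptor that relays a bacterial sugar signal to NF-kB, fell in the liver by a log2 of 1.30 (limma adjusted p = 0.0492) and had an intestine change of 0.09 ± 0.22 (log2). The adaptor Nck1 and the MuvB complex member Lin37 gave differences of -1.39 ± 0.31 and -0.93 ± 0.21 (log2). The lung libraries, which the difference does not use, had the sign of the liver for 4 of the 10 genes above 0 and for 5 of the 8 genes below 0 that were tested there, and 0 of these passed in the lung, where 1 of 13424 genes was called (0.00745%).

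The 25 genes that passed in the liver, 11 higher (0.117%) and 14 lower (0.149%), all had a smaller intestine change in size. They were chosen by the liver test, so this count is a description. The intestine change had the same sign in 17 and the opposite sign in 8. Serpina3f, a serine protease inhibitor, fell in the liver by a log2 of 4.16 and had an intestine change of -1.26 ± 0.63. Its liver levels were 182, 22.9 and 259 FPKM in control and 5.63, 4.06 and 4.89 FPKM in H2, and its intestine levels were 12.9, 13.2 and 10.1 FPKM in control and 5.03, 4.44 and 3.83 FPKM in H2. Every H2 library lay below every control library in both organs.

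Cd14, the co-receptor for bacterial lipopolysaccharide, fell in the liver from 807, 229 and 705 FPKM to 99.2, 57.7 and 63.2 FPKM, a change of -2.81 ± 0.44 (log2). In the intestine Cd14 was 40.3, 17.98 and 26.1 FPKM in control and 21.98, 14.2 and 11.9 FPKM in H2, and the groups overlapped. The chemokine Ccl5 had a liver change of -2.88 ± 0.51 and the stress-induced factor Maff one of -1.52 ± 0.20, against -1.58 ± 0.51 and -0.46 ± 0.20 in the intestine (log2). Among the genes that rose in the liver, Spon2, a secreted matrix protein of innate defence, changed by 2.16 ± 0.37 and Ptprb, a phosphatase of vessel endothelium, by 1.28 ± 0.22 (log2). Their intestine changes were 0.40 ± 0.37 and -0.18 ± 0.22. With each library left out in turn, 0 of the liver genes were called in 10 of 12 cases and 1 in another, and without control liver 2 the number was 1268.

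The 370 genes called without control liver 2 were of 4 kinds, by the signs of their organ changes with all 12 libraries. The liver change was positive and the intestine change negative for 165 of the 370, against 17.4% of all tested genes. The reverse held for 100, against 25%. Both changes were positive for 54, against 27.7%, and both negative for 51, against 29.9%. The 370 were chosen by the difference, so this split is a description. Il33, an alarmin of the interleukin-1 family, was 26.8, 2.85 and 21.8 FPKM in control livers and 1.48, 1.604 and 1.65 FPKM in H2 livers, with control liver 2 near the H2 livers. Its intestine levels were 15.8, 11.4 and 12.6 FPKM in control and 25.7, 36.05 and 17.1 FPKM in H2. The difference of Il33 was -3.27 (limma adjusted p = 0.272) with all libraries and -4.18 (limma adjusted p = 0.000261) without control liver 2. Klf15, a regulator of amino acid and glucose metabolism, showed the same dependence, at 5.43, 30.5 and 6.03 FPKM in control livers and 24.1, 28.3 and 32.3 FPKM in H2 livers. Its difference went from 1.82 to 2.56 (log2, limma adjusted p = 0.000261). Acsl1, which activates fatty acids for oxidation, and the transporter Slc25a23 had differences of 2.24 and 2.63 without that library. Serpina3f (-3.96), Cd14 (-2.64), Spon2 (2.26), Ptprb (1.73) and Maff (-1.29), described above, and Lbp (1.34), Il6ra (1.25), Mrc1 (2.62), Kdr (1.37) and Acads (0.76), described below, were also called without it (log2).

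Gene lists are described by their counts at an unadjusted p under 0.05, beside 5.72% above 0 and 6.77% below 0 over all tested genes. These counts are small, and a library named below as moving one is not always the only library that does. In each of the lists, 0 members passed the adjusted test of the difference with all 12 libraries. The acute-phase list held 28 tested genes, with 7 above 0 and 1 below 0 and a median difference of 0.37. Without H2 intestine 2 the count above 0 was 4 and the median 0.24, and the count below 0 was 3 without control liver 1. Its median change was -0.14 in the liver and -0.62 in the intestine. Lbp, which carries lipopolysaccharide to its receptor, was 135, 173 and 123 FPKM in control livers and 163, 186 and 142 FPKM in H2 livers, and 11.4, 8.36 and 9.26 FPKM in control and 4.91, 3.303 and 4.78 FPKM in H2 intestines. The receptor gene Il6ra gave 0.44 ± 0.19 in the liver and -0.77 ± 0.19 in the intestine (log2), and its groups stood apart in both organs. Serpina3f was the 1 member counted below 0.

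**Figure D3:**
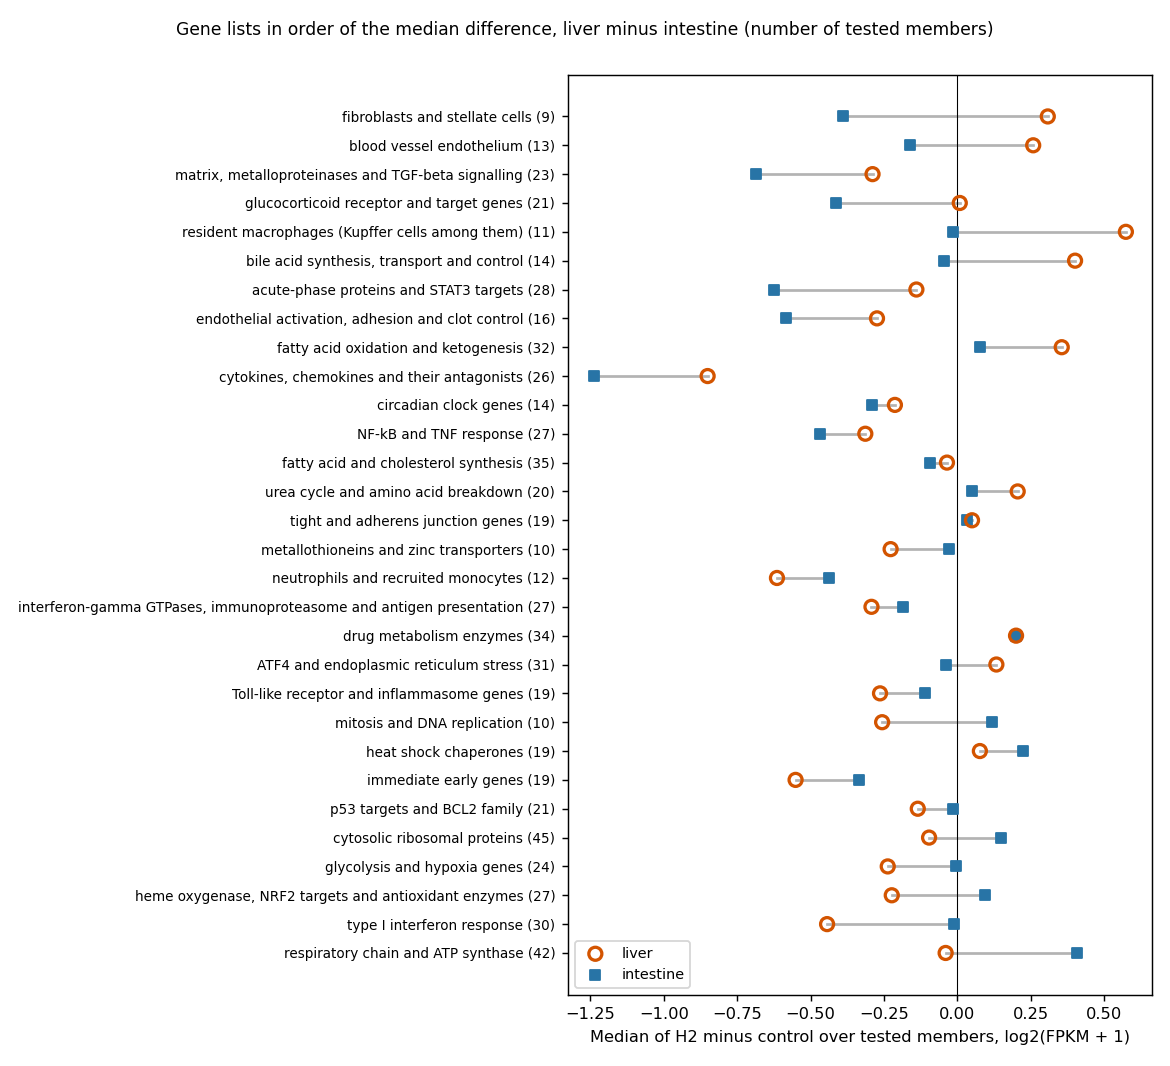
Median H2 minus control change of log2(FPKM + 1) over the tested members of 30 gene lists, with circles for the liver and squares for the intestine and the number of tested members in brackets. Type I interferon genes lie at -0.44 in the liver and -0.01 in the intestine, and acute-phase genes at -0.14 and -0.62.

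Type I interferon genes lay the other way. Of 30 tested, 0 were above 0 and 5 below 0 at an unadjusted p under 0.05, with a median difference of -0.37. The median change was -0.44 in the liver and -0.01 in the intestine. Isg15, a ubiquitin-like antiviral protein, was 182, 30.8 and 62.97 FPKM in control livers and 18.97, 7.33 and 21.7 FPKM in H2 livers. In the intestine it was 68.5, 109.8 and 119 FPKM in control and 74.5, 128 and 142 FPKM in H2, and the groups overlapped. Irf7, the factor that amplifies interferon production, gave -1.42 ± 0.31 in the liver and 0.41 ± 0.31 in the intestine (log2), and Zbp1, a nucleic acid sensor, -1.66 ± 0.48 and 0.78 ± 0.48. Without control liver 2 these genes were called in the difference, Isg15 at -2.99 from -2.40, Irf7 at -2.05 from -1.83 and Zbp1 at -2.93 from -2.44 (log2, limma adjusted p = 0.0378, 0.0337 and 0.0268). The list median came closest to 0, at -0.08, without control liver 1, which held the highest Isg15 level, and was lowest, at -0.58, without control liver 3. The Isg15 promoter is shown with its interferon-stimulated response element in capitals (GAAA, any 2 bases, GAAA, searched on both strands, with 3 matches that overlap each other and 0 of the other motifs searched, GRCm38.p6, chr4:156200769-156201068, minus strand). That motif is found in 3.44% of promoters, and the Irf7 and Oasl2 windows hold 0 matches.
Isg15: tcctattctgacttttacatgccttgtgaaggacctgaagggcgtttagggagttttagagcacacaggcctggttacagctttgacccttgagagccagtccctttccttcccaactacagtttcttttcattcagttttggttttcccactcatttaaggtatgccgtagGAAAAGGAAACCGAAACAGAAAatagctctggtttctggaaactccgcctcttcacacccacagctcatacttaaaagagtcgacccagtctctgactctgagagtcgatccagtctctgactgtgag

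The metallothionein and zinc transporter list had 3 above 0 and 2 below 0 of 10 tested at an unadjusted p under 0.05. Its median difference was -0.04, with median changes of -0.23 in the liver and -0.03 in the intestine, so the list lay on both sides of 0. The count below 0 was 0 without control liver 1. Mt1 and Mt2 encode metallothioneins, small zinc-binding proteins induced by zinc and glucocorticoids. Mt2 was 5214, 5501 and 6232 FPKM in control livers and 4729, 4779 and 5261 FPKM in H2 livers. In the intestine it was 746, 287 and 705 FPKM in control and 172, 119 and 235 FPKM in H2, below every control. The difference was 1.46 ± 0.46 for Mt2 and 1.15 ± 0.41 for Mt1 (log2, limma adjusted p = 0.298 and 0.325), and neither passed. The zinc transporters Slc39a10 and Slc39a4 lay below 0, at -0.67 ± 0.27 and -0.81 ± 0.34. The promoters of Mt1 (chr8:94178839-94179138, plus strand) and Mt2 (chr8:94172368-94172667, plus strand) are shown with matches of the metal response element core in capitals (TGCNCNC, both strands, GRCm38.p6), 3 in Mt1 and 6 in Mt2. This short motif is found in 51% of promoters.
Mt1: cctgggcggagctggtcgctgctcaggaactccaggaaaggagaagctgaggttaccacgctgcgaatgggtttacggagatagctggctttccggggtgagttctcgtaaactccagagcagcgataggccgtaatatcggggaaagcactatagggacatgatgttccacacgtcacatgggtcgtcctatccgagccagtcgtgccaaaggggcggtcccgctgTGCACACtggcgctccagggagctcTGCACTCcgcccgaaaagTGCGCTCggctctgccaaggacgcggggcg
Mt2: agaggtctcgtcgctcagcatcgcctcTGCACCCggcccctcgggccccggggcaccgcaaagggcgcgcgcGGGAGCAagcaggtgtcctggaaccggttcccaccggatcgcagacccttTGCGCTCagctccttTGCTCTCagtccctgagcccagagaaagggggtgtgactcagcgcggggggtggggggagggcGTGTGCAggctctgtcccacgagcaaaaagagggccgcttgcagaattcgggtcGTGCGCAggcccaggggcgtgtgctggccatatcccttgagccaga

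Glucocorticoid receptor targets had a median difference of 0.47 over 21 tested genes, with 3 above 0 and 0 below 0 at an unadjusted p under 0.05. The median change was 0.01 in the liver and -0.41 in the intestine. The median difference was 0.31 without control liver 3, and the count above 0 was 8 without control intestine 2. The co-chaperone Fkbp5 gave 0.31 ± 0.24 and -0.72 ± 0.24, and the factor Klf9 0.13 ± 0.24 and -0.80 ± 0.24 (log2). Mt2 is the third of these genes and stands in both lists.

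Metabolic lists lay on both sides. Fatty acid oxidation genes had a median difference of 0.26 over 32 tested, with 2 above 0 (Acsl1 and Acads) and 0 below. The median was 0.08 without control liver 3 and 0.42 without control liver 2, where 10 were above 0. The urea and amino acid list had 7 above 0 and 2 below 0 of 20 tested, at a median of 0.01 that was 0.18 without control liver 2. The count above 0 was 4 without control liver 1. Arg1, the arginase of the urea cycle, was 27.5, 10.4 and 11.9 FPKM in control intestine and 1.48, 1.37 and 5.48 FPKM in H2 intestine, with a liver change of -0.35 ± 0.39 (log2). Drug metabolism enzymes had 6 above 0 and 4 below 0 of 34, and the count below 0 was 10 without control liver 2 and 1 without control liver 1. Cyp2e1 was 856, 642 and 616 FPKM in control livers and 1074, 1440.1 and 1097 FPKM in H2 livers, with an intestine change of -0.72 ± 0.24 (log2). That intestine change rests on low values that overlap, at 3.01, 2.01 and 1.08 FPKM in control and 0.519, 0.668 and 1.24 FPKM in H2.

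Antioxidant genes had 1 above 0 and 5 below 0 of 27 tested, at a median of -0.33 that became -0.08 after quantile normalization. Without control liver 2 the counts were 3 above 0 and 10 below 0. Catalase, Cat, was the member above 0, at 59.5, 158 and 39.1 FPKM in control livers and 222, 248 and 242 FPKM in H2 livers, with an intestine change of -0.02 ± 0.39 (log2). Thioredoxin, Txn1, gave -0.44 ± 0.20 in the liver and 0.57 ± 0.20 in the intestine. Without control liver 2 the difference of Cat went from 1.73 to 2.29 and that of Txn1 from -1.01 to -1.19, and both were called (log2, limma adjusted p = 0.00704 and 0.0371). Interferon-gamma and antigen presentation genes had 0 above 0 and 6 below 0 of 27, among them H2-K1 at -0.69 ± 0.24 and Psmb10 at -0.99 ± 0.37 (log2). The median difference of this list was -0.09, against -0.06 over all tested genes, and ran from -0.51 to 0.05 with 1 library left out. The count below 0 was 3 without control intestine 1 and 9 without H2 intestine 1.

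Respiratory chain and ATP synthase genes, which make most of the cell's ATP, lay mostly below 0. Of 42 tested, 41 had a difference below 0, against 55.9% of all tested genes, and 8 reached an unadjusted p under 0.05, with a median of -0.39. The count of 8 was 2 without H2 liver 2 and 19 without H2 intestine 3. The median change was -0.04 in the liver and 0.41 in the intestine. Sdhb, a subunit of succinate dehydrogenase, was 142, 179.6 and 170.2 FPKM in control intestine and 206, 297 and 211 FPKM in H2 intestine. The list median was -0.28 without H2 intestine 2 and -0.17 after quantile normalization. Cytosolic ribosomal protein genes had 41 of 45 below 0, of which 0 reached an unadjusted p under 0.05, and a median of -0.24, which was -0.08 without H2 intestine 2 and turned to 0.06 after quantile normalization.

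Transcript length moves with these 2 lists. Their median transcript lengths were 955.5 and 878 bases, against 2583 over the tested genes. Over all genes under 1 kb the median intestine change was 0.258, and over genes longer than 4 kb it was -0.098. In the liver the same medians were -0.0369 and -0.00858. H2 intestine 2 stood at 0.484 for genes under 1 kb, against 0.145 and 0.142 in H2 intestine 1 and 3. The part of length in the list medians was not tested.

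**Figure D4:**
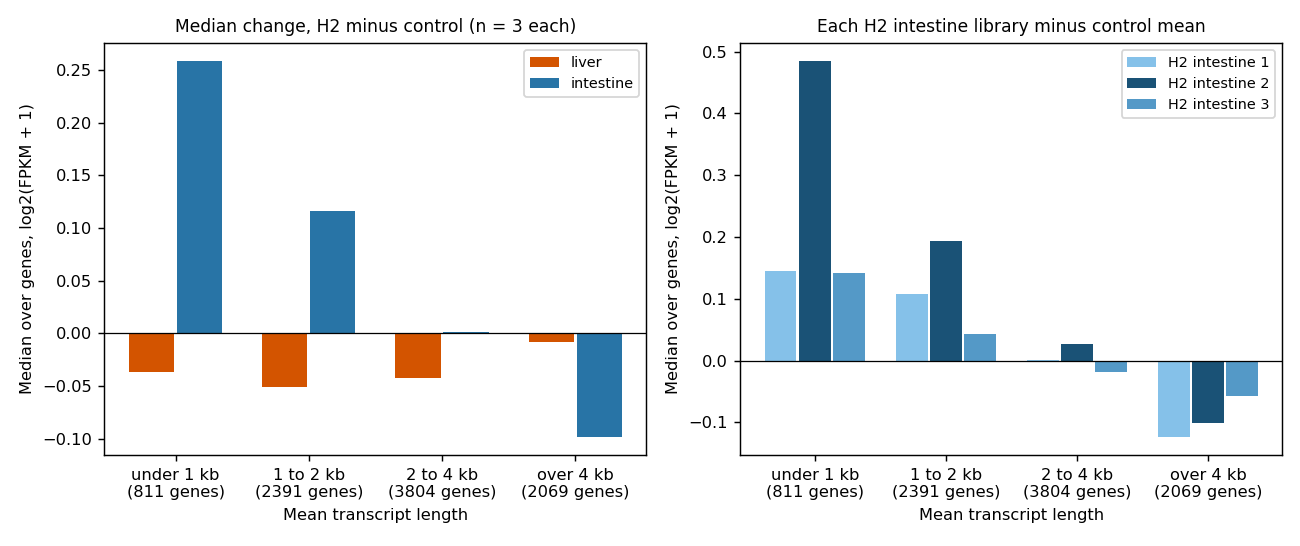
Median change of log2(FPKM + 1) by class of mean transcript length (GENCODE vM21), for each organ on the left and for each H2 intestine library against the mean of the control intestines on the right. Short transcripts lie higher in the H2 intestines, at a median of 0.258 under 1 kb, and H2 intestine 2 reaches 0.484.

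Some of the marker lists of cell types are given by their counts and summed levels. None of their members passed the adjusted test of the difference with all 12 libraries. In bulk tissue, fewer cells of a type and less RNA per cell cannot be told apart. The goblet and Paneth list, which holds Reg3g and Reg3b, had 0 above 0 and 2 below 0 of 4 tested. Its median difference was -1.04, and -0.50 after quantile normalization. Its summed level ran from 699 to 1207 FPKM in control livers and from 271 to 411 FPKM in H2 livers. In the intestine it ran from 169100 to 191900 FPKM in control and from 195300 to 342100 FPKM in H2, so the ranges stood apart in both organs. Reg3g and Reg3b made up most of this sum, at 723 and 473 of 1207 FPKM in control liver 1. In control intestine 1 they were 48142 and 89213 of 169100 FPKM. Reg3g was chosen by the p of the difference, so these ranges largely restate that choice and do not describe a cell type. The resident macrophage list had 4 above 0 and 0 below 0 of 11 tested, with a median change of 0.57 in the liver and -0.02 in the intestine. Its summed level ran from 274 to 323 FPKM in control livers and from 352 to 441 FPKM in H2 livers, and from 199 to 273 FPKM in control intestines and 214 to 287 FPKM in H2 intestines. The liver ranges stood apart and the intestine ranges overlapped. The count above 0 was 2 without control liver 2. Mrc1, the mannose receptor, was 0.817, 3.74 and 1.41 FPKM in control livers and 8.14, 5.33 and 6.72 FPKM in H2 livers. The Kupffer gene Clec4f was 6.63, 5.83 and 3.85 FPKM in control and 13.5, 18.6 and 19.2 FPKM in H2 livers, and 0 in every intestine library, as was the Kupffer gene Vsig4. Endothelial genes had 3 above 0 and 0 below 0 of 13, with Ptprb at 1.46 ± 0.31 and the VEGF receptor Kdr at 1.11 ± 0.36 (log2). Their summed level was 80.6 to 107 FPKM in control livers and 109.8 to 142 FPKM in H2 livers, and 75.2 to 93.5 FPKM in control intestines and 59.3 to 86.3 FPKM in H2 intestines, so that only the liver ranges stood apart. The endothelial count above 0 was 5 without control liver 2. Fibroblast genes had a median difference of 0.57 over 9 tested, with 1 above 0 and 0 below 0, and a summed level of 133 to 179.7 FPKM in control livers, 146 to 180.4 FPKM in H2 livers, 272 to 319.8 FPKM in control intestines and 156 to 283 FPKM in H2 intestines, with overlap in both organs. The fibroblast median was 0.37 without H2 intestine 2. The part of these cell types in the list medians and gene values was not tested.

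Most fat cell genes were lower in the H2 intestines than in the control intestines. Of 10 fat cell genes, 8 were below every control intestine in H2 intestine 1, 7 in H2 intestine 2 and 6 in H2 intestine 3. Of the 11910 genes with an intestine mean of at least 1 FPKM, which hold 9 of the 10, the same libraries were below every control for 28.7%, 31.2% and 24.7%. Adipoq was 20.8, 17.5 and 14.5 FPKM in control intestines and 0.0704, 0.0997 and 11.6 FPKM in H2 intestines. The complement factor gene Cfd was 131, 57.3 and 76.98 FPKM in control and 0.302, 0.551 and 49.8 FPKM in H2. H2 intestine 1 and 2 lay near 0 for these 2 genes, and H2 intestine 3 lay below but near the controls. The acute-phase gene Hp followed the same libraries, at 172, 229 and 197 FPKM in control and 12.9, 6.01 and 174 FPKM in H2. Orm1 did so in part, with 0.772, 0.547 and 2.76 FPKM in the H2 intestines. The summed level of mesothelium and enteric nerve genes, 10 in all, was 10.5 to 14.3 FPKM in control intestines and 2.92 to 9.27 FPKM in H2 intestines, and that of smooth muscle genes was 208 to 533 FPKM and 141 to 504 FPKM. The part of these tissues in the differences above 0 was not tested.

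**Figure D5:**
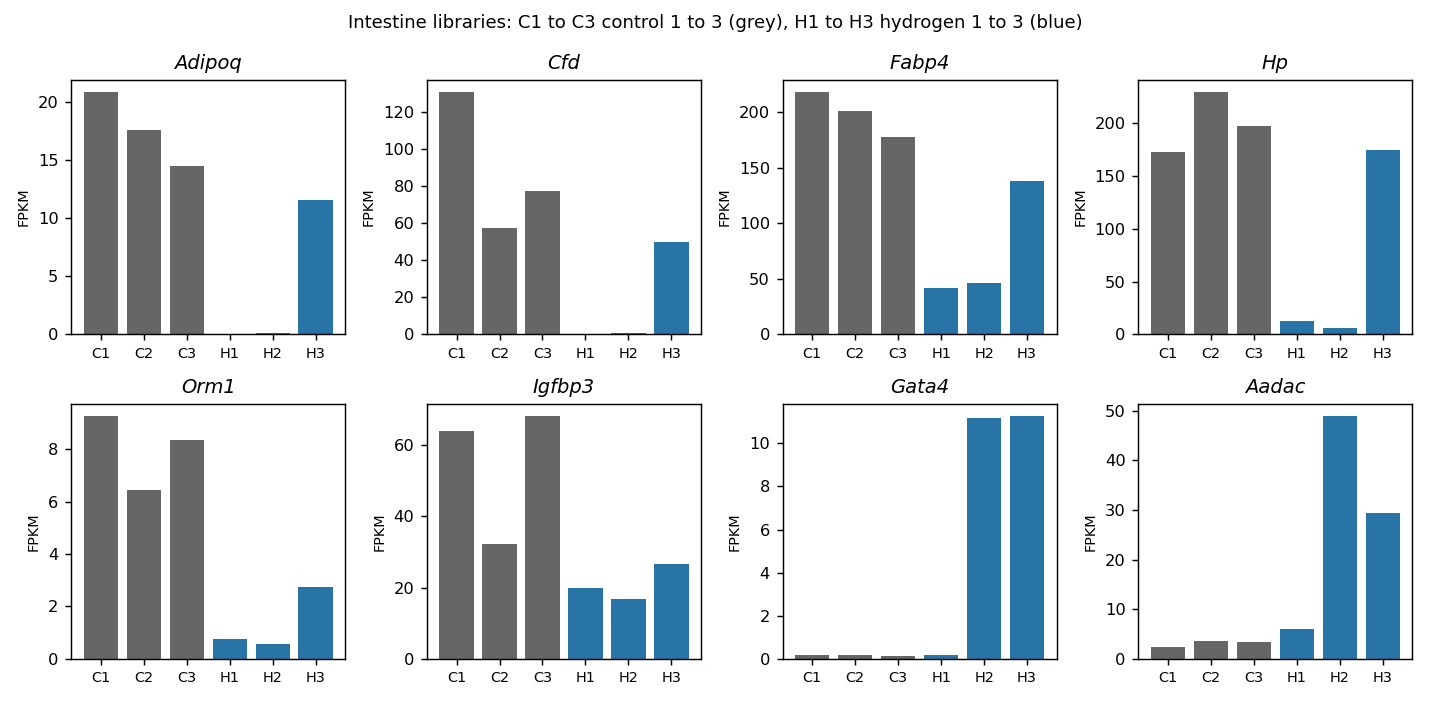
FPKM of 8 genes in the 6 intestine libraries on linear axes from 0, grey for control and blue for H2. Adipoq, Cfd and Hp are near their lowest in H2 intestine 1 and 2 and higher in H2 intestine 3, and Gata4 and Aadac are high in H2 intestine 2 and 3.

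Another set of libraries stood apart for genes that mark a stretch of gut. Gata4, a factor of the upper small intestine, measured 0.184, 0.171 and 0.136 FPKM in control intestines and 0.181, 11.2 and 11.3 FPKM in H2 intestines. The lactase gene Lct, also an upper gut gene, was 0, 0.0229 and 0.0145 FPKM in control and 0.0121, 3.25 and 1.498 FPKM in H2. The ileal bile acid carrier Fabp6 was high in all 6 libraries, at 1653, 1548 and 1112 FPKM in control and 2471, 3060.1 and 1721 FPKM in H2. The ileal bile acid transporter Slc10a2 was 268, 190.4 and 208 FPKM in control and 323, 271 and 109.7 FPKM in H2, with H2 intestine 3 below every control. These genes were chosen after their values were seen. Aadac, an arylacetamide deacetylase, was 2.31, 3.64 and 3.43 FPKM in control and 6.04, 48.9 and 29.3 FPKM in H2. Gata4 and Aadac are the 2 genes the difference called without H2 intestine 1, at -3.30 and -2.86 (log2, limma adjusted p = 0.000128 and 0.0162). Gata4 reached the intestine mean of 1 FPKM only through H2 intestine 2 and 3. Both calls leave out the H2 intestine with the lowest level of these genes, so they are a description. Whether the sampled stretch of gut has a part in the intestine changes was not tested.

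No gene of an inflammatory panel passed in the difference. Of its 12 genes, Tnf, Il10 and Nos2 fell short of 1 FPKM in 1 organ, and 0 of the 9 tested reached an unadjusted p under 0.05, with 5 above 0 and 4 below 0. Without control intestine 2 the number above 0 at that p was 3, and without control liver 1 there was 1 below 0. Cxcl1, a neutrophil chemokine, gave -0.06 ± 0.80 in the liver and -2.30 ± 0.80 in the intestine, a difference of 2.24 ± 1.13 (log2). Lcn2 gave 0.77 ± 0.41, Il1b 1.12 ± 0.89, Ccl2 -0.86 ± 0.92 and Cxcl2 0.89 ± 1.49. Without control liver 2 the differences were 0.50 for Il1b, -1.49 for Ccl2, 0.08 for Cxcl2 and -0.94 for Il6. The standard errors of Il6 (-0.34 ± 1.48), Cxcl1 and Cxcl2 exceed 1 on the log2 scale, and a difference between the organs within that spread was not detectable for them. Control intestine 2 was low for Il6, Cxcl1 and Cxcl2. In the control intestines Cxcl1 was 111, 8.93 and 83.7 FPKM and Cxcl2 was 152, 4.05 and 46.7 FPKM. In the H2 intestines Cxcl1 was 18.6, 2.2 and 11.7 FPKM, which overlaps with control intestine 2. For Saa1 control intestine 2 was the highest control intestine, at 5254, 6970 and 6044 FPKM in control intestines 1 to 3.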

How the data were processed

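The deposited FPKM of 24346 gene symbols, 1 column per library, were made by the authors on mm10 with Cufflinks 2.2.1, SAMtools 0.1.19, Bowtie2 2.2.3 and TopHat2 2.0.13, per the submitters' processing notes. Annotation and options are not given in the sources used here. Poly(A) libraries were stranded, per the labels' protocols. In 1 file a further column of sample values was not used. FPKM hold no counts, and the implied depth of 9.33 to 14.1 M fragments gives no interval for single values.

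The difference was fitted on log2(FPKM + 1), which understates changes of low genes, with limma 3.58.1 in R 4.3.3 (empirical Bayes with trend, two-sided, Benjamini-Hochberg over 9391 genes) on 12 libraries with 1 mean per group. An exact permutation test of 3 against 3 cannot go below 0.1. The fit was tested on simulated data. P-values measure the spread between these libraries. The genes, lists (924 symbols, 922 found, 683 tested) and tests were chosen with earlier results of these data known. Named genes are the 10 with the smallest p in each direction, up to 4 members per list at an unadjusted p under 0.05, and the panel. Genes called in 1 organ, those called without 1 library and tissue genes were named after their values were seen. Promoters are from RefSeq (GRCm38.p6), and positions and lengths from GENCODE vM21, by symbol. Alternatives covered pseudocounts, filters, scalings, weights, blocks and libraries left out.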

Additional observations from a re-analysis of the deposited data

How the results depend on the processing

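The difference called 0 genes in most settings. It called 22 with no filter (2294 at an unadjusted p under 0.05), none of them among the 9391, 1 with all 18 libraries (Mxra8) and 608 with array weights (2439 unadjusted), 303 of these shared with the 370 called without control liver 2. With 1 library left out the calls ran from 0 to 370 and the unadjusted count from 757 to 1959. Without H2 intestine 3 the calls were 10, Hp, Orm1, Ntn1, Timp2, Itga5, Trf, Tns1, Dlat, Amy1 and Zc3h7b. A mean FPKM of at least 5 left 5173 genes and 633 unadjusted. Liver calls were 56 with no filter, 4 at a mean of 5, 77 after quantile normalization, 8 after median-of-ratios scaling, 166 with 18 libraries, 7 without trend, 2669 with array weights and 54 without small RNA and predicted genes, and 0 to 1268 with 1 library left out. Intestine calls were 0 and 22 at pseudocounts of 0.1 and 5, 167 with no filter, 1 at a mean of 5, 0 after quantile normalization, 50 with 18 libraries, 405 with array weights and 0 to 296 with 1 library left out. Chosen after seeing the data, leaving out control liver 2 and H2 intestine 2 together gave 262 calls (238 shared with the 370), 1590 in the liver and 0 in the intestine, and leaving out library 1 of every group gave 2, with 464 unadjusted and 0 in the liver. The cause of these shifts was not tested.

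Same-numbered libraries of the 2 organs deviated together in all 3 control pairs (correlations 0.13 to 0.27) and in 0 of 3 H2 pairs (-0.02 to 0.07), at a correlation over 0.1. Over all 6 pairs of groups, number 1 was over 0.1 in 5, number 2 in 1 and number 3 in 1, and 7 of 12 libraries correlated best with their own number, so numbers were not taken as pairs. A replicate block by number gave 85 liver and 52 intestine calls and 0 in the difference, and a block by treatment and number also gave 0 in the difference. Of 4050 values of 152 named genes in other settings, 14 changed sign. Those were Spc25 (-0.026 at a pseudocount of 5), Il6 (0.53 at 5, 0.075 with array weights, 0.070 without library 1, -1.48 to 1.16 with libraries left out), Saa1 (0.20) and S100a8 (0.027) after quantile normalization, S100a8 (-0.949 to 0.477), Hmox1 (-0.0943 to 0.984) and Cxcl2 (-0.571 to 2.25) with libraries left out, where -0.57 for Cxcl2 and the lowest Il6 value come from leaving out control liver 2 and H2 intestine 2 together. Precision is limited by 3 libraries per group (8 residual degrees of freedom), and for low genes also by depth.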

Other observations

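With no filter, 22 of 18717 genes were called, 14 above 0 and 8 below 0. All lay outside the 9391, with a mean under 1 FPKM in at least 1 organ. Such a difference can rest on the change in 1 organ alone, and libraries without spread near 0 shrink its error. It is therefore not read as a difference between the organs. The largest was that of the small RNA gene Mir1901, at 11.58 (log2), and the genes below are examples. The aldehyde oxidase gene Aox3 had a difference of 1.92 (log2) and the endothelial gene Btnl9 a difference of 0.88, both above 0. A2m, a protease inhibitor of plasma, had -1.18 and Psg18, a pregnancy-specific glycoprotein gene, -1.76.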
